A study of Mus musculus with 21 samples.

Results

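The response of wild-type mouse hearts to pressure overload was described from 10 of the 21 arrays of the series. Of these, 6 came from wild-type mice after transverse aortic constriction (TAC) and 4 from wild-type mice after a sham operation. The samples were chosen by the genotype and the operation in their titles, and no measured value entered the choice. In TAC, a ligature sized on a 27 gauge needle narrowed the aortic arch beyond the brachiocephalic trunk and before the left common carotid artery. Sham animals went through the same surgery with the aorta left untouched. The other 11 arrays are of G4D mice, the Gata4-deficient genotype of the series, after TAC (n = 6) or sham surgery (n = 5). They enter through the shared estimate of the spread and through 1 comparison at the end. The labels used here name no strain, age or time after surgery, and nothing says that replicates are separate animals. The p-values therefore measure the spread between samples labelled as replicates, part of which may be technical.

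Narrowing the aorta makes the left ventricle eject against a higher pressure. The heart is known to answer with growth of its muscle cells, re-expression of fetal contractile and peptide genes, a shift of fuel use away from fatty acids, and proliferation of fibroblasts that lay down matrix. Macrophages, endothelial cells and mural cells of the vessels also change in number and state. The source name of the samples is a cardiac myocyte, and the labels do not say whether cells were isolated or tissue was extracted.

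RNA was read on arrays with 45101 probe sets, and 13279 genes bright enough to test were compared on a log2 scale after quantile normalization. A gene was said to rise or fall when its adjusted p, from limma with Benjamini-Hochberg adjustment over all tested genes, was under 0.05. Changes are log2 fold changes of TAC over sham with their standard error after ±, unless an SD is named, and a level is a log2 probe-set value of 1 sample. The wild-type arrays correlated at 0.984 to 0.989 with the mean of the rest of their group. How far the 3' actin control probe set exceeds the 5' set, a measure of RNA quality, differed between the groups. This actin gap was 0.52 ± 0.10 (SD, n = 4) in sham and 0.32 ± 0.11 (SD, n = 6) after TAC. The lowest sham actin gap, 0.437, was above the highest TAC actin gap, 0.408. The same gap of the Gapdh control overlapped between the groups. It was -0.17 ± 0.19 (SD, n = 4) in sham and -0.21 ± 0.08 (SD, n = 6) after TAC. The part of the actin gap in the results below was not tested beyond the fit with this gap as a covariate. In that fit 406 genes were called. TAC sample 4 was the most extreme of the 6 TAC samples in 54.4% of the genes that rose and in 57.1% of those that fell, and precision is limited by how few arrays there are.

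In all, 976 of the 13279 genes (7.35%) were called, of which 689 rose (5.19%) and 287 fell (2.16%). Called rises were larger than called falls: the median called rise was 0.61 and the median called fall -0.44. To be tested, a gene's mean over all arrays had to reach 4.35, so a gene low in sham could enter through the TAC arrays. A group mean below 4.35 was found for 54 of the rises and 2 of the falls, and the sizes of these are imprecise. How much of the size difference comes from this filter was not tested. Of the 689 rises, 309 stayed under 1.5-fold, 255 lay between 1.5-fold and 2-fold, 103 between 2-fold and 4-fold, and 22 reached 4-fold. Of the 287 falls, 227 stayed under 1.5-fold, 5 passed 2-fold and 0 reached 4-fold. The median over all tested genes was -0.02 and the median standard error 0.13. The split between directions moved with the scaling. Rises made up 70.6% of the calls after quantile normalization, 94.7% of the 95 calls in the values as deposited, and 93.8% of the 388 calls after median centring. Falls are therefore read below mainly from the quantile-normalized values.

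Genes were then grouped into 99 families and lists, 54 of them defined by a pattern of gene names and 45 written out gene by gene. They were chosen with earlier results of these data known, so their shares describe the lists and are no independent test. They hold 2459 distinct tested genes, of which 252 rose and 67 fell. Calls were spread unevenly: 44 families held rises alone, 15 falls alone, 19 both and 21 no call. The plot of called members by family sets these shares against those of all tested genes. Over all tested genes 5.19% rose and 2.16% fell, and calls of a family near these shares are read gene by gene.

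**Figure D1:**
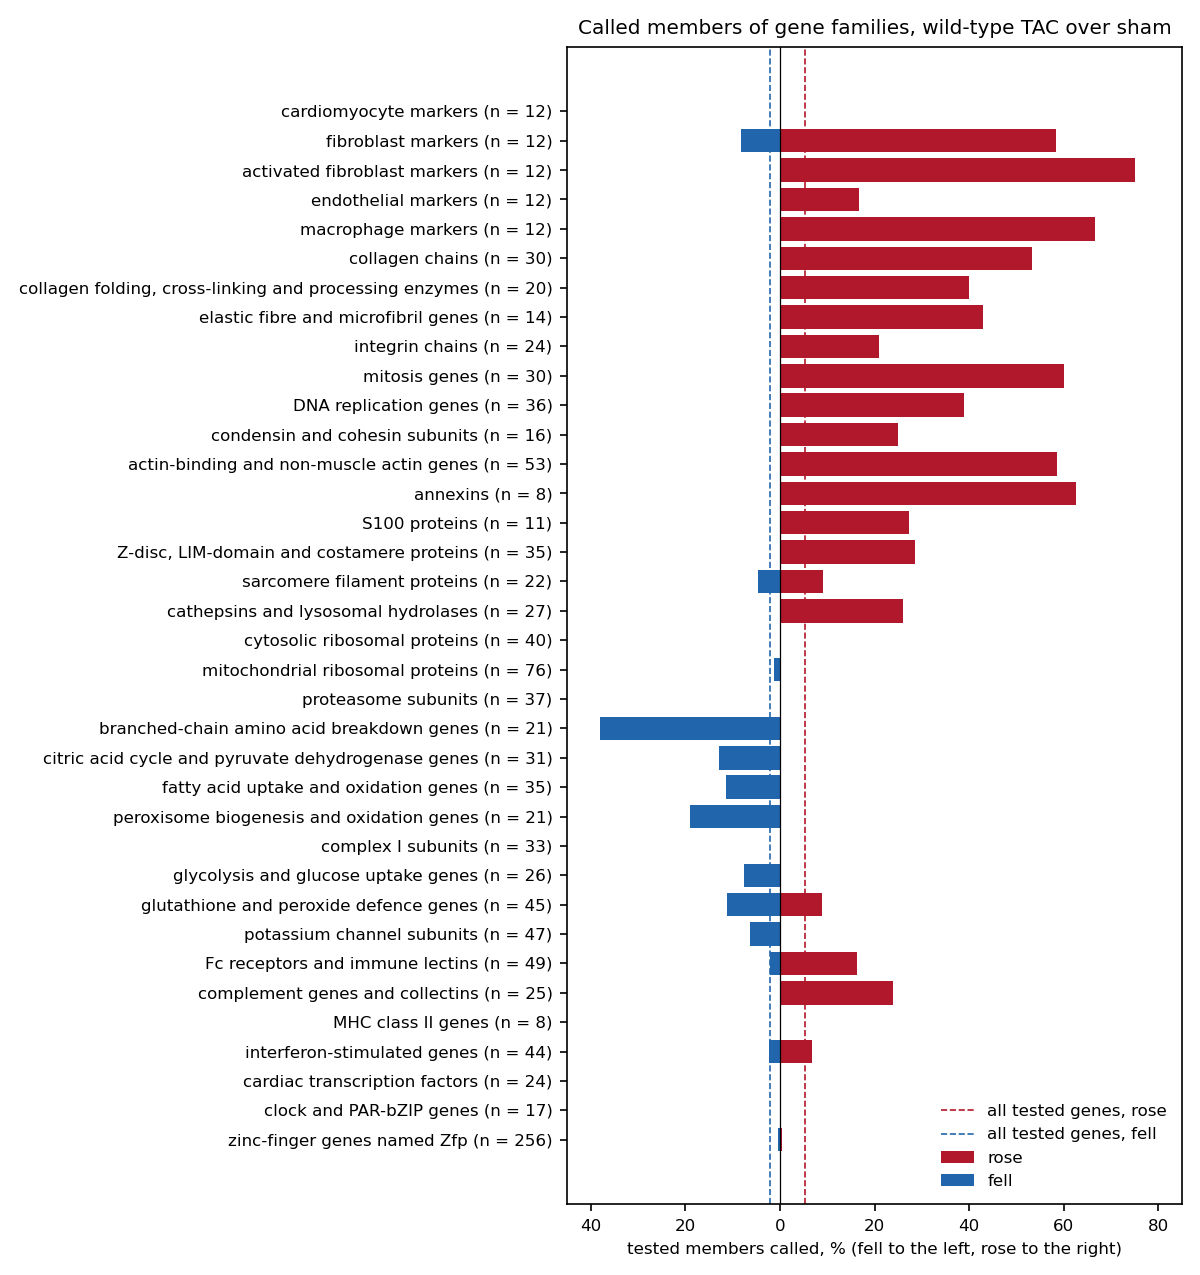
Share of tested members of 36 gene families that rose (red, to the right) or fell (blue, to the left) after TAC in wild-type hearts, in percent. Dashed lines mark the shares over all tested genes, 5.19% for rises and 2.16% for falls. The families were chosen with earlier results of these data known. Matrix, cell division, actin-binding and macrophage families extend far to the right, branched-chain amino acid breakdown far to the left, and ribosomal proteins, proteasome and cardiac transcription factors sit at or near 0.

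Markers of heart muscle cells held their level. Of 12 cardiomyocyte markers 0 were called, the median was -0.01, and the values ran from -0.20 for Ryr2, the calcium release channel of the sarcoplasmic reticulum, to 0.14 for Myl3, the ventricular essential light chain. Myl3 read 12.69, 12.64, 12.70 and 12.66 in the sham samples and from 12.69 to 12.96 (median 12.79) after TAC, so the groups overlapped. The same list had a median of -0.26 in the values as deposited and -0.19 after median centring. RNA of other cell types was present in sham and TAC samples alike. Of 12 fibroblast markers 7 rose and 1 fell (median 0.78), and of 12 markers of activated fibroblasts 9 rose and 0 fell (median 1.72). The fall in the former list was Gsn, which encodes the actin-severing protein gelsolin, at -0.39. The other 4 fibroblast markers were not called, Dcn at 0.06, Pdgfra at 0.07, Dpt at 0.08 and Tcf21 at 0.14. In bulk RNA, a change in the number of cells of a type and a change in RNA per cell cannot be told apart.

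Among the activated fibroblast markers, Postn, which encodes the matricellular protein periostin, read 7.68, 7.77, 7.50 and 8.09 in the sham samples and from 10.05 to 11.11 (median 10.34) after TAC. Tnc, the matrix glycoprotein tenascin C, read 2.63, 3.34, 3.12 and 3.08 in sham and from 4.91 to 6.40 (median 5.36) after TAC. Ltbp2, a fibrillin-binding microfibril protein, read 3.49, 3.48, 3.30 and 3.51 in sham and from 4.89 to 6.88 (median 5.84) after TAC. In each of these genes the sham and TAC samples stood apart, and TAC sample 4 was the highest. The sham means of Tnc and Ltbp2 were under the 4.35 that a gene's mean across the 21 arrays had to reach, so the sizes of their rises (2.48 and 2.38) are imprecise. With the actin gap as a covariate, 5 of the 12 activated markers were called.

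Macrophage markers also rose, in 8 of 12 (median 0.67), while 4 were not called and 1 of the 12 values was negative, at -0.49. In 5 of the 12 every TAC sample lay above every sham sample, against 6.36% of all tested genes. Cd68, a lysosomal glycoprotein of macrophages, read 5.87, 5.70, 5.34 and 5.44 in sham and from 6.43 to 7.20 (median 6.53) after TAC. The complement component gene C1qb read 8.20, 8.07, 7.98 and 7.98 in sham and from 8.75 to 9.56 (median 9.01) after TAC. Mrc1, the mannose receptor of resident tissue macrophages, rose by 0.75 ± 0.17. The groups did not overlap in any of these 3 genes. In the values as deposited 0 of the 12 macrophage markers were called, at a median of 0.58. Endothelial markers rose in 2 of 12 (median 0.09), Pecam1, the junction protein CD31, by 0.53 ± 0.11 and Fabp4, a fatty acid binding protein of capillaries and fat, by 0.31 ± 0.09. Smooth muscle and pericyte markers gave 1 rise, Cspg4 at 0.49, and 1 fall, the potassium channel regulator Abcc9 at -0.31, among 9 tested. Neutrophil (6 tested), B cell (3), T and NK cell (2 of the 8 with a probe set), erythroid (3), epicardial (3) and Schwann cell (4) markers had 0 calls. Of 7 atrial markers Nppa alone rose, and the other 6 were not called and negative (list median -0.40). The calls of Cspg4 and Fabp4 held in 3 and 1 of the 10 fits that left out a wild-type array, at 0.43 to 0.55 and 0.26 to 0.35, and that of Abcc9 was lost without sham sample 2 (-0.35 to -0.28 over the 10 fits).

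Collagen chains rose broadly but not uniformly. Of 42 chains with a probe set 30 were bright enough to test, and 16 of these rose and 0 fell (median 0.64). The rises took in the fibrillar chains Col1a1 (1.58), Col1a2 (1.44), Col3a1 (1.29), Col5a1 (1.09) and Col5a2 (1.45), and the beaded-filament chains Col6a1 (0.73), Col6a2 (1.05) and Col6a3 (0.99). Basement membrane chains of the widespread pair, Col4a1 (0.69) and Col4a2 (0.59), rose, while the chains of the restricted networks, Col4a3 (-0.16), Col4a4 (0.47), Col4a5 (0.46) and Col4a6 (0.22), were not called. Cartilage chains were not called either, with Col9a1 at -0.51, Col9a2 at 0.03 and Col11a2 at 0.10. The other called chains were Col8a1, Col14a1, Col15a1 (0.84), Col16a1 (0.81), Col18a1 (1.18) and Col22a1 (0.77).

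The largest collagen rise was of Col8a1, a short network-forming chain of vessel walls, by 2.07 ± 0.22 (adjusted p = 2.33e-05). Col8a1 read 7.0, 6.86, 7.22 and 7.33 in the sham samples and from 8.84 to 9.64 (median 9.12) after TAC. Col14a1, a chain that sits on the surface of collagen fibrils, read 5.84, 5.95, 5.53 and 5.97 in sham and from 6.74 to 8.0 (median 7.43) after TAC, a rise of 1.64 ± 0.26. Col1a1, the main chain of type I collagen, read 8.52, 8.21, 8.82 and 8.43 in sham and from 9.28 to 10.78 (median 10.19) after TAC. TAC samples stood above every sham sample in all 3 genes. In 15 of the 30 tested chains every TAC sample lay above every sham sample, as in 6.36% of all tested genes, and of the called chains Col22a1 overlapped. In the values as deposited 9 chains were called and with the actin gap as a covariate 12, while leaving out any single wild-type array left 15 or 16.

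**Figure D2:**
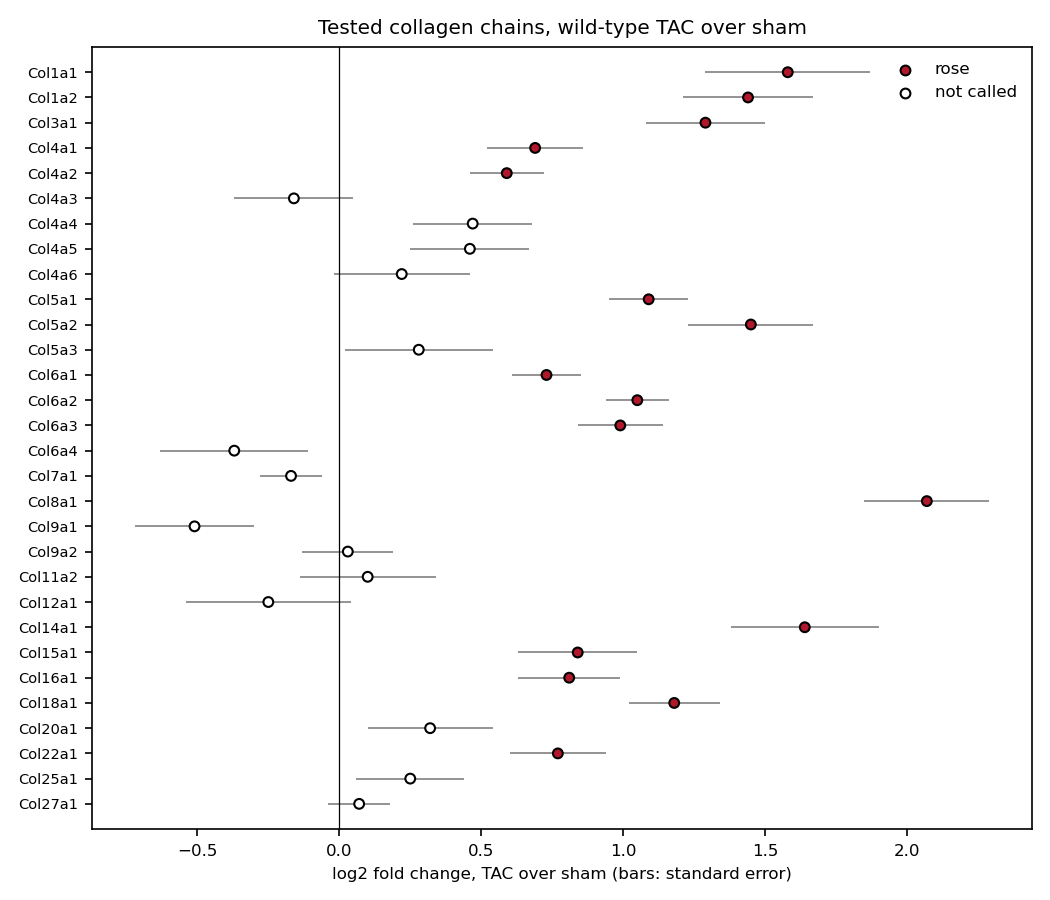
Log2 fold change, TAC over sham, of the 30 tested collagen chains in wild-type hearts, with bars of 1 standard error. Filled points are the 16 chains that rose, led by Col8a1 at 2.07, and open points the 14 that were not called, which run from -0.51 for Col9a1 to 0.47 for Col4a4.

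The enzymes that fold, cross-link and trim collagen rose in 8 of 20 (median 0.32). Lox, the lysyl oxidase that starts cross-links between fibrils, read 4.45, 5.36, 5.63 and 5.65 in sham and from 6.46 to 8.38 (median 6.96) after TAC. Its rise of 1.91 ± 0.46 was not called without sham sample 1 (1.63 to 2.05 over the arrays left out). Pcolce, an enhancer of the protease that removes the procollagen tail, rose by 0.92 ± 0.14, and Sparc, a collagen-binding chaperone of the matrix, by 0.85 ± 0.17. The remaining calls were Loxl1 (0.63), the collagen chaperone gene Serpinh1 (0.48), Colgalt1 (0.34), P4hb (0.32) and Crtap (0.30). The count was 5 without sham sample 1, 2 with the actin covariate and 1 in the values as deposited.

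Small leucine-rich proteoglycans, which sit on collagen fibrils and set their spacing, rose in 3 of 11. Bgn, which encodes biglycan, read 9.72, 9.39, 9.68 and 9.69 in sham and from 10.44 to 11.32 (median 10.88) after TAC, with no overlap. Aspn, which encodes asporin, rose by 1.31 ± 0.27 and Lum, which encodes lumican, by 0.88 ± 0.16, while Dcn, for decorin, stood at 0.06. Elastic fibre and microfibril genes rose in 6 of 14 (median 0.44). Mfap4, a microfibril-associated glycoprotein, read 4.63, 4.92, 5.57 and 4.70 in sham and from 6.14 to 7.54 (median 7.05) after TAC, and Mfap5, of the same microfibrils, rose by 1.44 ± 0.18. The other calls there were Ltbp2, Emilin1 (0.85), Fbln2 (0.83) and Ltbp3 (0.56), and the elastin gene Eln stood at 0.73 without a call. Laminin chains rose in 3 of 9, and these were the chains of the vascular laminin, Lama4 (0.56 ± 0.13), Lamb1 (0.57 ± 0.12) and Lamc1 (0.45 ± 0.09), whereas Lama2, the chain of the muscle fibre's own basement membrane, stood at 0.07. Of the 9 values 4 were negative, down to -0.62, and 0 were called as falls. In 2 of the 9 every TAC sample lay below every sham sample, against 4.16% of all tested genes. With the wild-type arrays fitted alone 2 chains fell. In the values as deposited and after median centring 0 laminin chains were called.

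Of 28 ADAM and ADAMTS genes 1 rose, Adamts1, a protease of versican, by 0.76 ± 0.16, and of 7 tested matrix metalloproteases 2 rose, Mmp23 by 0.97 ± 0.21 and the membrane protease gene Mmp14 by 0.84 ± 0.25. Mmp14 overlapped between the groups and kept its call in 3 of the 10 fits with an array left out (0.72 to 0.96). Of the 4 tissue inhibitors of metalloproteases Timp1 alone rose. Timp1 read 4.55, 4.46, 4.25 and 4.65 in sham and from 6.37 to 8.0 (median 6.97) after TAC, a rise of 2.60 ± 0.32. The inhibitors Timp2 (0.26), Timp3 (0.37) and Timp4 (0.04) were not called.

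Integrin chains, the cell's receptors for matrix, rose in 5 of 24, namely Itgbl1, an integrin-related secreted protein, by 1.02 ± 0.25, Itga1 (0.61), Itga6 (0.59), Itga9 (0.57) and the leukocyte chain Itgb2 (0.55). That count was 1 without sham sample 1, 3 without sham sample 2, 3 without TAC sample 4, 1 with the actin covariate and 0 in the values as deposited. Among syndecans and glypicans, the cell-surface heparan sulphate carriers, Gpc6 (0.56 ± 0.15) and Sdc2 (0.31 ± 0.09) of 8 rose, and both calls were lost without sham sample 1 or TAC sample 4, among others (0.50 to 0.64 and 0.26 to 0.35). Semaphorins and plexins, guidance cues and their receptors, had 0 calls among 27.

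Genes of mitosis and of DNA replication rose in wild-type hearts. Of 43 mitosis genes with a probe set 30 were tested, and 18 rose and 0 fell (median 0.83). A gene low in sham could be tested through the groups in which it was high, as for 9 of these 18, while 13 mitosis genes were too dim to test, so the share that rose is raised by the filter. Over all tested genes, 54 rises and 2 falls had a group mean below 4.35. Cdk1, the cyclin-dependent kinase of mitotic entry, read 3.39, 3.69, 3.83 and 3.79 in sham and from 6.24 to 7.44 (median 7.11) after TAC. Top2a, which untangles sister chromatids, read 3.79, 3.90, 4.46 and 4.04 in sham and from 6.22 to 7.56 (median 7.30) after TAC. Kif22, a kinesin that pushes chromosome arms, read 5.40, 5.62, 6.39 and 4.87 in sham and from 7.76 to 9.07 (median 8.66) after TAC. In these 3 genes every TAC sample lay above every sham sample. Their rises were 3.23 ± 0.30 (adjusted p = 4.82e-06), 2.97 ± 0.39 and 2.94 ± 0.43. The sham means of Cdk1 and Top2a were below 4.35, which leaves their sizes imprecise, whereas Kif22 and Ccna2, the cyclin of S phase and early mitosis, were above it. Ccna2 read 4.76, 5.32, 5.37 and 5.53 in sham and from 6.69 to 7.76 (median 7.26) after TAC.

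Replication genes rose in 14 of 36 tested (median 0.29). The replicative helicase took up 6 of these calls, Mcm6 (1.73), Mcm3 (1.23), Mcm5 (1.15), Mcm7 (1.00), Mcm2 (0.99) and Mcm4 (0.94). Mcm6 read 5.77, 5.82, 5.67 and 5.66 in sham and from 7.04 to 7.91 (median 7.44) after TAC. Rrm2, the regulated subunit of ribonucleotide reductase, read 4.55, 4.64, 4.47 and 4.70 in sham and from 5.84 to 7.20 (median 6.72) after TAC, and the other subunit gene Rrm1 rose by 0.89. Cdt1, which loads the helicase at origins, read 4.01, 4.52, 4.34 and 4.30 in sham and from 5.86 to 6.90 (median 6.37) after TAC. None of these 3 overlapped between the groups. The other calls were Lig1 (1.71), Tk1 (1.07), Orc6 (0.92), Prim1 (0.87) and Pcna (0.70). Replication calls numbered 6 and mitosis calls 11 in the values as deposited, 12 and 14 with the actin covariate, and 13 to 14 and 15 to 18 without 1 wild-type array.

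Around these genes the machinery was uneven. Condensin and cohesin subunits rose in 4 of 16, all 4 of condensin: Smc2 (2.62, from a sham mean below 4.35), Smc4 (1.11), Ncaph (0.75) and Ncapd2 (0.56); without sham sample 1 the count was 2. Of 16 cyclins 3 rose, Ccna2, the growth-factor responsive Ccnd1 (0.90 ± 0.14) and Ccnd3 (0.40 ± 0.10), and the call of Ccnd3 was lost without sham sample 2 (0.31 to 0.46). Ccnd1 read 8.84, 8.47, 8.55 and 8.47 in sham and from 9.30 to 9.67 (median 9.45) after TAC. Among inhibitors of cyclin-dependent kinases and pocket proteins 1 of 8 fell, Cdkn1c, which encodes p57, at -0.79 ± 0.21, and 1 rose, Rbl1, which encodes p107, at 0.66 ± 0.14. Cdkn1c read 7.45, 7.74, 7.75 and 7.76 in sham and from 6.48 to 7.20 (median 6.90) after TAC, and its call was lost without sham sample 2, 3 or 4 or TAC sample 3 (-0.86 to -0.71).

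Promoters of the division genes were read from RefSeq (GRCm38.p6), 250 bases before to 50 after each annotated start, to show what the families share in sequence. Searches ran on both strands for the CHR letters TTTGAA, for CCAAT, and for E2F-like letters in any of 3 spellings. The first spelling is TTCCCGC, the other common spelling is TTGGCGC, and the last spelling searched is TTCGCGC. CHR letters occurred in 26 of 36 mitosis genes with a promoter entry (72.2%), against 11.8% of the tested genes and 18.1% of all genes. CHR and CCAAT occurred together in 63.9% of the mitosis genes and in 4.67% of the tested genes. E2F-like letters occurred in 16 of 32 replication genes (50.0%), against 13.7% of the tested and 8.21% of all genes. Within the families, CHR occurred in 13 of 16 called mitosis genes (81.2%) and in 13 of the 20 that were not called or not tested (65.0%), and E2F-like letters in 7 of 13 called replication genes (53.8%) and 9 of the 19 others (47.4%). A match is a description of letters and not a bound site. The last 120 bases before the start are given for 5 of the genes described above, in the direction of transcription, with matches in capitals (on the other strand CCAAT appears as ATTGG, and the CHR letters appear as TTCAAA). Cdk1 lies at chr10:69352913-69353032, Top2a at chr11:99024190-99024309, Kif22 at chr7:127042421-127042540 and Mcm6 at chr1:128359706-128359825, all on the minus strand, and Rrm2 at chr12:24708134-24708253 on the plus strand. Cdk1, Top2a and Kif22 each show CHR letters within 23 bases of the start with CCAAT letters before them. Mcm6 shows a pair of E2F-like stretches, each made of overlapping matches, and Rrm2 shows CCAAT alone in this stretch. Cdt1, also described above, held no match in its last 120 bases and is not printed. Its E2F-like letters begin 18 and 33 bases past the start.
Cdk1: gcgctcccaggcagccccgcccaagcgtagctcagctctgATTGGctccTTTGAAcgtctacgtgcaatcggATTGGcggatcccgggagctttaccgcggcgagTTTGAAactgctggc
Top2a: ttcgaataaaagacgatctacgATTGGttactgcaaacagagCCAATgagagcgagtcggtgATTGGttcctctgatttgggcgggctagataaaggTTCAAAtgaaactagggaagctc
Kif22: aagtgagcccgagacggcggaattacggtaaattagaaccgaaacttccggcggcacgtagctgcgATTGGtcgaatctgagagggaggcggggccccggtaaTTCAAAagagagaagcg
Mcm6: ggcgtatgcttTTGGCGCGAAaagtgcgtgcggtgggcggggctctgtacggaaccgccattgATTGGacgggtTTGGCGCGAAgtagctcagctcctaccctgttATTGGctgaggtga
Rrm2: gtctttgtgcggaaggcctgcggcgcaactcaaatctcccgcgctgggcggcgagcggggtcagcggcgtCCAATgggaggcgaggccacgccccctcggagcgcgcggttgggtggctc

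The family medians were compared sample by sample, each gene set relative to its own sham mean. In the mitosis genes the 4 sham samples lay between -0.01 and 0.10 and the 6 TAC samples between 0.46 and 1.09. In the activated fibroblast markers the TAC samples lay between 1.27 and 2.42, with TAC sample 4 the highest. In the cardiomyocyte markers sham and TAC samples overlapped, from -0.07 to 0.05.

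**Figure D3:**
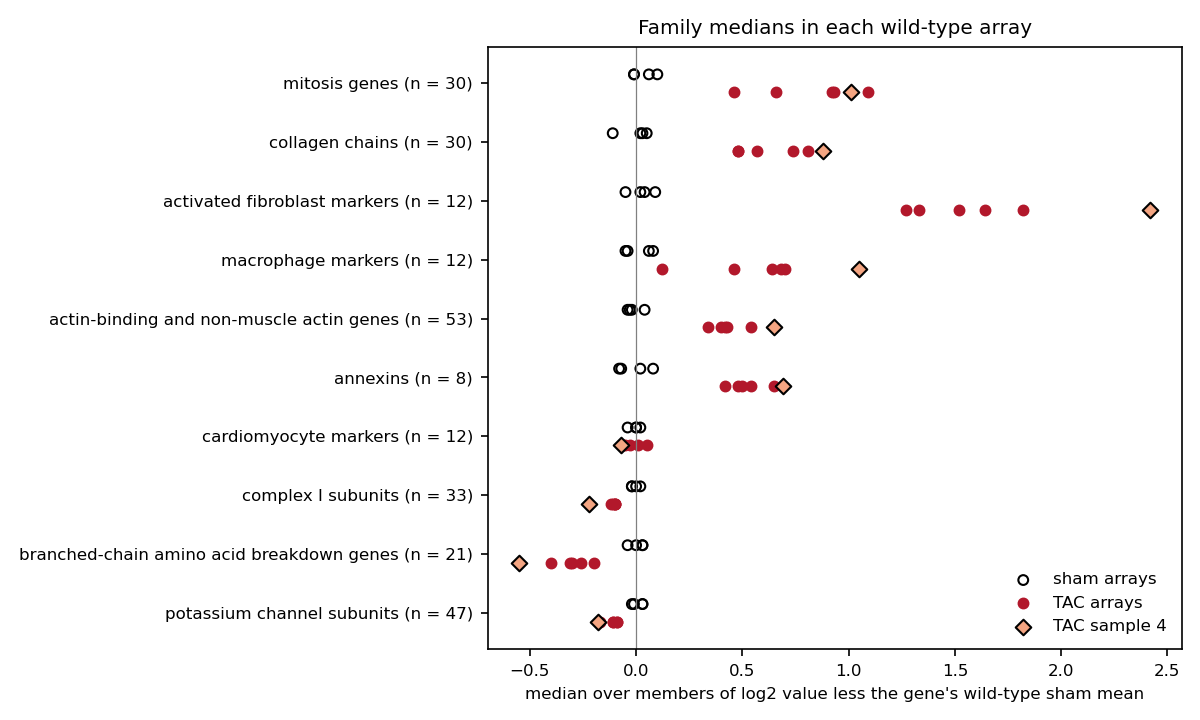
Median over the tested members of 10 families, in each wild-type sample, of the log2 value less the gene's wild-type sham mean. Open circles are the 4 sham samples, filled circles 5 TAC samples and diamonds TAC sample 4. Sham and TAC samples overlap in the cardiomyocyte markers and stand apart in the other 9 families shown.

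Of 53 tested actin-binding and non-muscle actin genes 31 rose and 0 fell (median 0.43), and 46 of 53 values were positive. Fscn1, which encodes the filament bundler fascin, read 8.54, 8.03, 8.37 and 8.23 in sham and from 9.28 to 9.84 (median 9.58) after TAC, a rise of 1.27 ± 0.21. Vim, which encodes the intermediate filament protein vimentin of mesenchymal cells, read 10.37, 10.33, 10.44 and 10.30 in sham and from 11.33 to 11.79 (median 11.49) after TAC. Tmsb10, which encodes the monomer-binding peptide thymosin beta 10, read 9.75, 9.73, 9.63 and 9.68 in sham and from 10.52 to 11.21 (median 10.79) after TAC. The sham samples of Vim and Tmsb10 spread over less than the gap to the lowest TAC sample.

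The calls included genes of monomer binding (Tmsb4x, 0.53), nucleation (Arpc2, 0.33, Arpc4, 0.43, and Arpc5, 0.53), capping (Capza1, 0.45, and Capg, 1.09), severing (Cfl1, 0.56) and bundling or cross-linking (Lcp1, 1.03, Pls3, 0.60, Actn1, 0.76, Actn4, 0.46, and Flna, 0.58). Non-muscle myosin heavy chains Myh9 (0.53) and Myh10 (0.65), the tropomyosin gene Tpm4 (0.98), the transgelin-related Tagln2 (0.98), the calponin gene Cnn3 (0.83) and the membrane linker Msn (0.69) rose as well. Markers of contractile smooth muscle in the same list were not called, with Acta2 at 0.11, Myl9 at 0.40 and Tagln at 0.72. Coro1a (0.77), Lcp1 and Plek (1.11, from a sham mean below 4.35) are genes of white blood cells and moved beside the macrophage markers. The number of calls was 18 with the actin covariate, 13 after median centring and 2 in the values as deposited, with medians of 0.45, 0.42 and 0.35, and 24 to 29 without 1 wild-type array. The actin covariate is itself read from a member of this list.

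**Figure D4:**
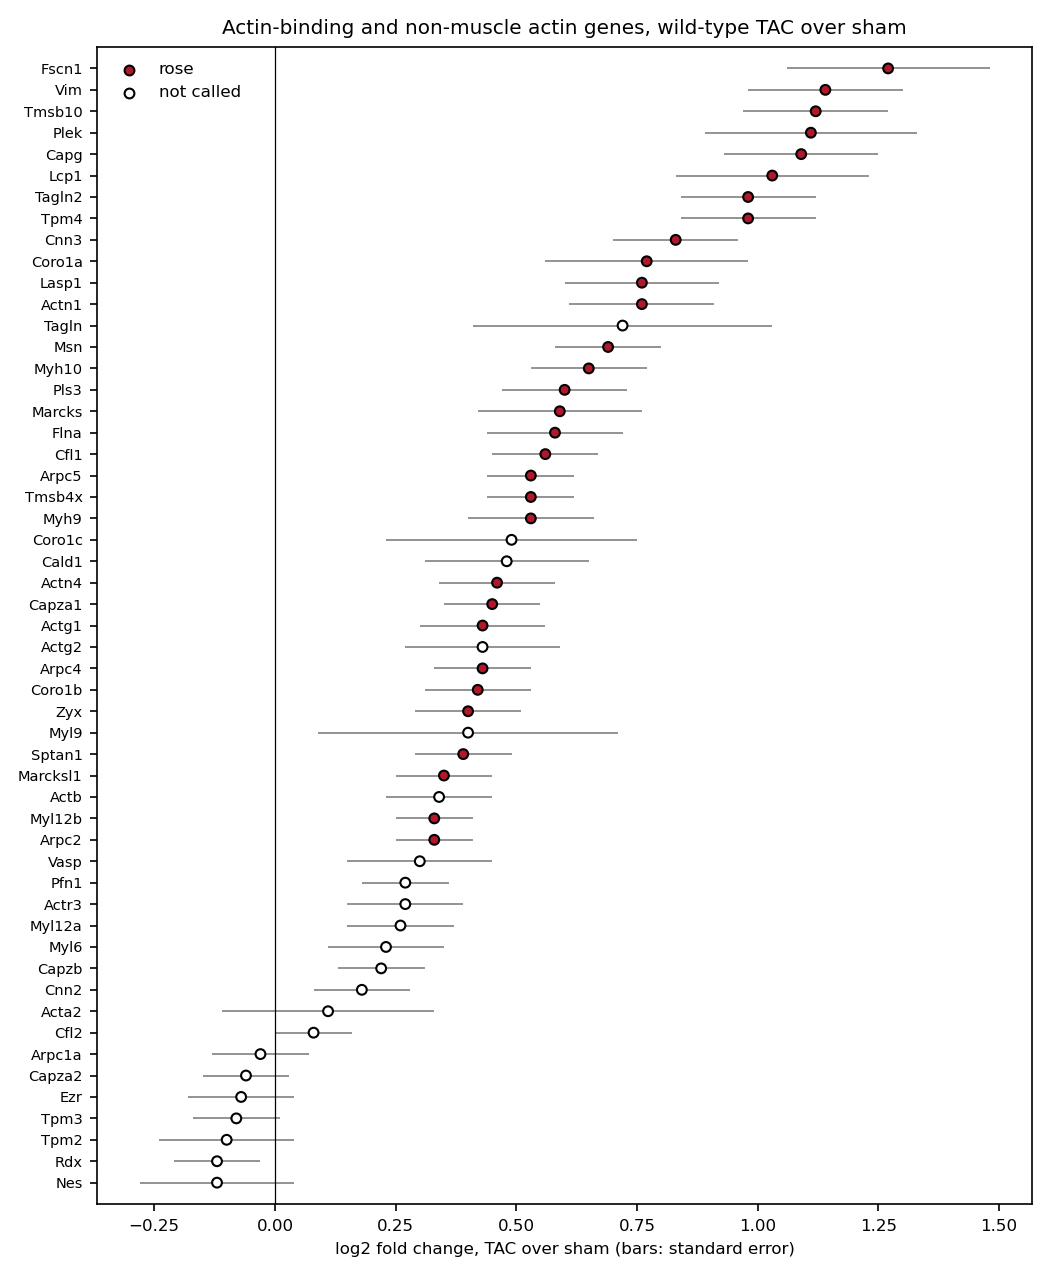
Log2 fold change, TAC over sham, of 53 actin-binding and non-muscle actin genes in wild-type hearts, ordered by size, with bars of 1 standard error. Filled points are the 31 genes that rose, from 0.33 to 1.27 for Fscn1, and open points the 22 that were not called.

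Annexins, calcium-dependent membrane-binding proteins, rose in 5 of 8 (median 0.55). Anxa2 read 9.22, 9.03, 8.94 and 9.06 in sham and from 9.87 to 10.53 (median 10.09) after TAC. Its partner gene S100a10, whose protein joins it in a membrane complex, read 8.17, 7.93, 8.26 and 8.12 in sham and from 8.47 to 9.38 (median 8.92) after TAC. The pair rose by 1.11 ± 0.14 and 0.81 ± 0.19, without overlap of the groups. Anxa1 rose by 0.93, Anxa3 by 0.69, Anxa4 by 0.64 and Anxa5 by 0.46, while Anxa6, Anxa7 and Anxa13 stood at 0.07, 0.20 and -0.39. Of 11 S100 genes S100a4 (0.77) and S100a6 (0.67) rose beside S100a10, and the count was 5 without sham sample 4. Of 12 tubulins 3 rose, Tubb2b (1.55, from a sham mean below 4.35), Tubb5 (0.71) and Tuba1a (0.56), and of 11 septins Septin11 (0.69) and Septin8 (0.45) rose. The calls of Tuba1a and Septin8 held in 3 and 7 of the 10 fits with an array left out (0.47 to 0.64 and 0.39 to 0.53), and the tubulin count was 5 without TAC sample 2.

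Of 22 filament proteins of the sarcomere 2 rose and 1 fell, and the median was -0.02. Myh7, the slow myosin heavy chain of the fetal ventricle, read 9.16, 9.51, 8.82 and 8.59 in sham and from 10.75 to 11.88 (median 11.07) after TAC. Acta1, the skeletal actin gene, read 10.63, 10.72, 11.70 and 11.13 in sham and from 12.41 to 12.58 (median 12.51) after TAC. The groups did not overlap in either gene, and the call of Acta1 was lost with the actin covariate. Nebl, the gene of the Z-disc anchor nebulette, fell by 0.33 ± 0.09, a call that held in 4 of the 10 fits without 1 array (-0.38 to -0.30). Outside the list, Mybpc2, the fast skeletal isoform of myosin-binding protein C, was the fourth largest rise of well-measured genes. Mybpc2 read 5.65, 6.43, 7.32 and 6.39 in sham and from 8.10 to 9.24 (median 8.81) after TAC, a rise of 2.33 ± 0.27 (adjusted p = 4.38e-05).

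Z-disc, LIM-domain and costamere proteins, which link the sarcomere to the membrane and sense stretch, rose in 10 of 35 with a median of 0.05, or -0.05 in the values as deposited. Ankrd1, a stretch-responsive ankyrin repeat protein of the titin I-band, read 10.39, 10.56, 11.02 and 10.60 in sham and from 12.03 to 12.43 (median 12.36) after TAC. Synpo2l, an actin-associated Z-disc gene, read 9.23, 9.46, 9.29 and 9.46 in sham and from 10.24 to 10.83 (median 10.48) after TAC. These were changes of 1.64 ± 0.15 and 1.16 ± 0.15, and both held under each alternative and without each array. The cysteine-rich LIM genes Csrp1 (0.78), Csrp2 (0.87) and Csrp3 (0.23), the LIM genes Fhl1 (0.61) and Pdlim1 (0.53), Ankrd23 (0.84), Flnc (0.38) and Tln1 (0.31) made up the rest. The call of Csrp2 held in 3 of 10 fits without 1 array (0.81 to 0.92), and the family's count was 6 without sham sample 2, 3 or 4.

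In energy metabolism most called genes fell, by small amounts. All 21 tested genes of this pathway, which feeds leucine, isoleucine and valine into the citric acid cycle, had negative values. Of these 8 fell and 0 rose (median -0.37), and in 14 of 21 every TAC sample lay below every sham sample, against 4.16% of all tested genes. Bckdha, a subunit of the dehydrogenase that commits the keto acids, read 9.65, 9.57, 9.60 and 9.66 in sham and from 8.51 to 9.14 (median 8.95) after TAC. Mccc2 of leucine breakdown read 9.17, 9.15, 9.28 and 9.10 in sham and from 8.35 to 8.80 (median 8.60) after TAC. Dbt, the core subunit of the same dehydrogenase, read 8.17, 8.36, 8.48 and 8.35 in sham and from 7.53 to 8.09 (median 7.80) after TAC. None of the 3 overlapped, and TAC sample 4 was the lowest in each. Their changes were -0.72 ± 0.17, -0.57 ± 0.10 and -0.51 ± 0.13.

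The other called genes of the pathway were Bckdhb (-0.50), Ppm1k (-0.49), the phosphatase that activates the dehydrogenase, Aldh6a1 (-0.37), Pcca (-0.37) and Mmut (-0.30). The first step, Bcat2, stood at -0.47 without a call. The count of falls was 5 without sham sample 1 or 4 or TAC sample 5, 4 without sham sample 3 or TAC sample 4, and 3 without sham sample 2. It was 1 with the actin covariate (median -0.31) and 0 in the values as deposited and after median centring, where the medians were -0.47 and -0.40.

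Fatty acid uptake and oxidation genes fell in 4 of 35 with 32 of 35 values negative (median -0.23). Mlycd, which removes the inhibitor malonyl-CoA, read 8.24, 8.16, 8.32 and 8.19 in sham and from 7.34 to 7.79 (median 7.63) after TAC. Acacb, the enzyme that makes malonyl-CoA, also fell, by 0.45 ± 0.13, and Acads of short-chain oxidation by 0.41 ± 0.11. Esrra, a nuclear receptor of mitochondrial genes, fell by 0.32 ± 0.09. The calls of Acacb, Acads and Esrra held in 1, 5 and 4 of the 10 fits without 1 array (-0.49 to -0.39, -0.44 to -0.36 and -0.37 to -0.26), and the family's count was 1 without sham sample 1 or 3 or TAC sample 4 or 5, and 2 without sham sample 2 or 4 or TAC sample 1. Peroxisome genes, some of which oxidise long and branched chains, fell in 4 of 21: Ech1 and Pex11a (each -0.39), Abcd3 (-0.33) and Phyh (-0.25). That count was 0 without sham sample 2, 1 without sham sample 4 or TAC sample 4, and 2 without sham sample 1 or 3. In the values as deposited and after median centring 0 fatty acid or peroxisome genes were called.

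In the citric acid cycle and pyruvate dehydrogenase list 4 of 31 fell and 30 of 31 values were negative (median -0.16). The calls were Pdp2, the phosphatase that activates pyruvate dehydrogenase (-0.90), its inhibiting kinases Pdk2 (-0.49) and Pdk1 (-0.33), and Pcx, pyruvate carboxylase (-0.58). Pdk2 read 10.16, 9.90, 10.20 and 9.97 in sham and from 9.17 to 9.76 (median 9.62) after TAC. Pcx read 6.11, 5.94, 6.27 and 6.24 in sham and from 4.95 to 5.79 (median 5.67) after TAC. In both genes TAC sample 4 was the lowest and the groups did not overlap. The count was 0 without sham sample 1, 1 without sham sample 3 or TAC sample 4, and 2 without sham sample 2 or 4. It was 0 in the values as deposited, after median centring and with the actin covariate.

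Subunits of the respiratory chain had few calls and small, mostly negative values. In complex I 0 of 33 were called although 32 of 33 values were negative (median -0.12). TAC samples lay below all sham samples in 6 of the 33, against 4.16% of all tested genes. Ndufs5 and Ndufs4 had the largest changes, at -0.27 ± 0.09 and -0.26 ± 0.09. Of 30 subunits of complexes II, III and IV 22 had negative and 8 positive values, and 1 fell, the muscle isoform Cox7a1, at -0.32 ± 0.08, a call lost without sham sample 2 or 3 or TAC sample 4 (-0.34 to -0.27). ATP synthase had 0 calls among 17 (median -0.06), and of 76 mitochondrial ribosomal proteins 1 fell, Mrps24 at -0.38 (median -0.10). The medians of these 4 families lay between -0.29 and -0.13 in the values as deposited and after median centring.

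Mitochondrial carriers fell in 3 of 40 and rose in 1. Slc25a42, which imports coenzyme A, read 8.44, 8.54, 8.41 and 8.30 in sham and from 7.42 to 7.93 (median 7.69) after TAC. Slc25a22, a glutamate carrier, fell by 0.38. Slc25a34, of the same carrier family, read 9.23, 9.29, 9.49 and 9.31 in sham and from 8.47 to 8.83 (median 8.68) after TAC. The calcium-regulated ATP and phosphate exchanger Slc25a24 rose by 0.80 ± 0.19, without overlap of the groups, a call lost without sham sample 1 (0.70 to 0.90). Of 26 glycolysis and glucose uptake genes 2 fell, the insulin-responsive glucose transporter Slc2a4 (-0.39 ± 0.10) and the glycogen phosphorylase gene Pygm (-0.33 ± 0.09), at a median of -0.01, and neither was called with sham sample 1 or 2 or TAC sample 4 left out (-0.42 to -0.36 and -0.36 to -0.27 over the arrays). Among creatine kinase and phosphotransfer genes Ak4, a mitochondrial adenylate kinase, fell by 0.54 ± 0.12 as the 1 call in 12.

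**Figure D5:**
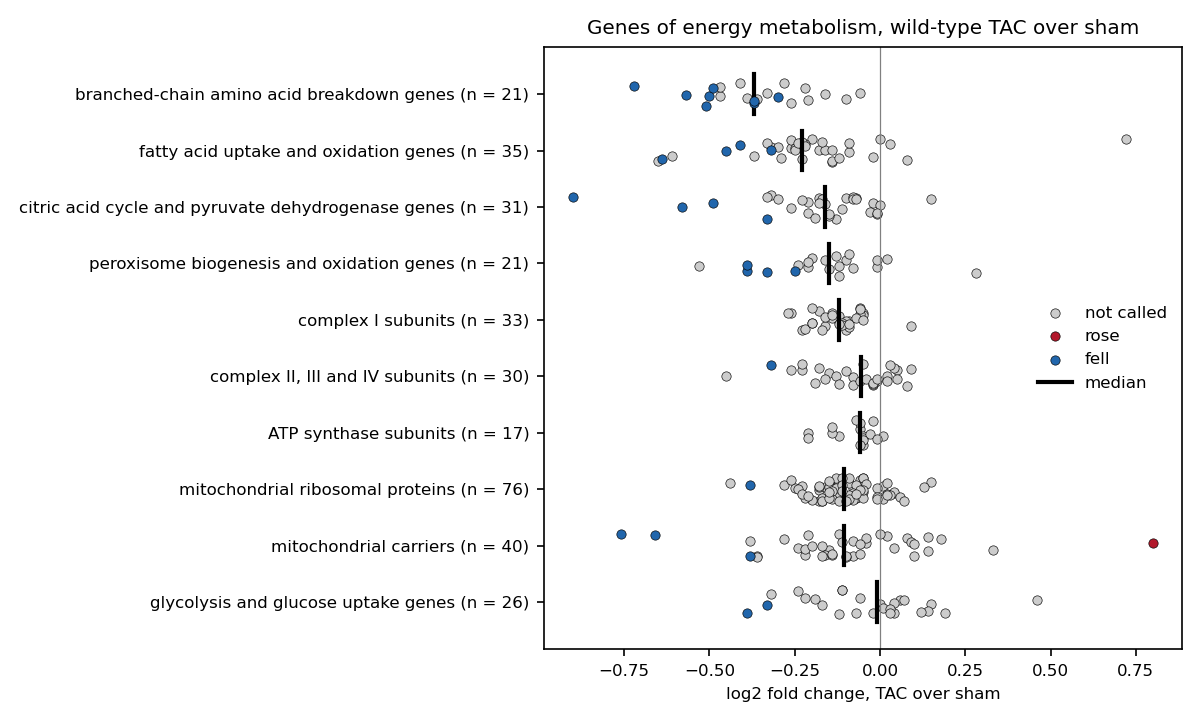
Log2 fold change, TAC over sham, of the tested genes of 10 families of energy metabolism in wild-type hearts. Blue points fell, red points rose, grey points were not called, and black bars are family medians, which run from -0.37 for branched-chain amino acid breakdown to -0.01 for glycolysis.

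Among 45 glutathione and peroxide defence genes 5 fell, all 5 glutathione S-transferases: Gstm7 (-0.69), Gstk1 (-0.65), Gstm1 (-0.64), Gstm2 (-0.43) and Gsta4 (-0.36). The 5 falls became 0 in the values as deposited, and 1 after median centring and with the actin covariate. Gstm7 read 7.89, 7.77, 7.82 and 7.75 in sham and from 6.80 to 7.24 (median 7.17) after TAC. Gstm1 read 10.67, 10.70, 10.48 and 10.74 in sham and from 9.86 to 10.28 (median 9.96) after TAC. The groups were apart in both, but genes of the Gstm cluster are near copies of each other and the probe sets may share signal. The 4 genes that rose were the peroxidases Gpx7 (0.59), Prdx4 (0.50) and Gpx1 (0.38) and the heme oxygenase gene Hmox1 (0.36), and that count was 1 without sham sample 2 and 2 without sham sample 1 or 3 or TAC sample 4. Aldehyde dehydrogenases fell in 3 of 17, Aldh4a1 of proline breakdown (-0.57), Aldh5a1 of GABA breakdown (-0.52) and Aldh6a1 (-0.37). Aldh1a2, which makes retinoic acid in epicardial and stromal cells, rose, from 5.72, 6.14, 5.88 and 5.64 in sham to between 6.61 and 7.45 (median 7.06) after TAC. The retinoic acid hydroxylase Cyp26b1 fell by 0.65 ± 0.20, a call that held in 3 of 10 fits without 1 array (-0.74 to -0.41).

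In serine, one-carbon and nucleotide synthesis 3 of 29 rose, led by Nmrk2, the muscle nicotinamide riboside kinase of NAD salvage. Nmrk2 read 5.56, 5.08, 4.87 and 5.61 in sham and from 6.22 to 7.64 (median 6.57) after TAC, a rise of 1.43 ± 0.38 that was not called without sham sample 2 or 3 (1.25 to 1.54). Mthfd2 of mitochondrial folate metabolism rose by 0.64 ± 0.16 and Adss of AMP synthesis by 0.52 ± 0.14. The count was 1 without sham sample 1, 3 or 4 and 5 without TAC sample 2. Of 19 cholesterol synthesis genes 1 fell, the regulator Srebf1, at -0.47 ± 0.13, which held in 4 of 10 fits (-0.53 to -0.40).

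Of 40 cytosolic ribosomal proteins 0 were called, at a median of 0.08, which turned to -0.07 in the values as deposited, and the value farthest from 0 was Rpl3l, the striated-muscle paralogue of Rpl3, at -0.52 ± 0.16 (adjusted p = 0.0513). Rpl3l read 10.42, 10.30, 10.29 and 10.18 in sham and from 9.57 to 9.93 (median 9.81) after TAC, without overlap. Proteasome subunits had 0 calls among 37 and cytosolic aminoacyl-tRNA synthetases 0 among 19, with medians of 0.03 and 0.06 that turned to -0.08 and -0.01 in the values as deposited. Initiation factors rose in 2 of 46 (4.3%, against 5.19% of all tested genes), the helicase gene Eif4a1 by 0.42 ± 0.09 and the repressor gene Eif4ebp1 by 0.52 ± 0.13. Ribosome biogenesis genes rose in 3 of 32, Rrp12 (0.75), Npm1 (0.31) and Nhp2 (0.29), and in 0 without sham sample 1.

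Endoplasmic reticulum folding and stress genes rose in 4 of 30, Edem1 (0.72), Pdia3 (0.35), P4hb (0.32) and Atf4 (0.29), while Hspa5, the main chaperone of the compartment, stood at -0.20. The 4 calls were fragile: the count was 0 without sham sample 1 or 4 or TAC sample 4 or 5, 1 without sham sample 3 and 2 without TAC sample 1, 2 or 3. Cathepsins and lysosomal hydrolases rose in 7 of 27. Ctss, the elastin-degrading cathepsin of macrophages, read 7.36, 7.38, 7.30 and 7.31 in sham and from 7.87 to 9.20 (median 8.21) after TAC. Ctsk, a collagen-degrading cathepsin, read 5.03, 5.01, 5.09 and 5.19 in sham and from 5.65 to 6.30 (median 5.98) after TAC, and Ctsz rose by 0.89 ± 0.12. The groups were apart in these 3, and the other 4 calls were Gusb (0.77), Ctsc (0.50), Lgmn (0.45) and Ctsa (0.28). In the values as deposited 0 were called. Autophagy genes fell in 3 of 27, the mitophagy kinase Pink1 (-0.47 ± 0.10), the starting kinase Ulk1 (-0.41 ± 0.12) and Rb1cc1 (-0.26 ± 0.08) of the same starting complex. Pink1 read 10.37, 10.44, 10.31 and 10.31 in sham and from 9.61 to 10.08 (median 9.92) after TAC. The count was 1 without sham sample 1, 2, 3 or 4 or TAC sample 2 or 6, and 0 in the values as deposited, after median centring and with the actin covariate.

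Excitation genes gave more falls than rises among potassium channels, 3 against 0 of 47, with a median of -0.13. Kcnv2, a silent subunit that modifies other channels, read 5.87, 6.39, 6.33 and 6.39 in sham and from 4.54 to 5.51 (median 5.14) after TAC. Kcnk3, the background channel TASK-1, read 9.81, 9.62, 9.73 and 9.49 in sham and from 8.72 to 9.39 (median 9.04) after TAC. Kcnd2 of the transient outward current read 7.07, 7.33, 7.51 and 7.48 in sham and from 6.54 to 6.96 (median 6.68) after TAC. All 3 stood apart between the groups, with changes of -1.22 ± 0.23, -0.65 ± 0.15 and -0.64 ± 0.19. The call of Kcnd2 held in 1 of 10 fits without 1 array (-0.73 to -0.58). Sodium channels, connexins and pacemaker channels had 0 calls among 11.

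Calcium handling genes rose in 3 of 50 and fell in 1, a called share of 8.0%, near the 7.35% of all tested genes. Casq1, the skeletal calsequestrin, read 7.65, 7.89, 9.11 and 8.11 in sham and from 8.81 to 10.09 (median 9.52) after TAC, so that sham sample 3 lay among the TAC samples. Its rise was 1.27 ± 0.32, not called without sham sample 1 or 2 (1.09 to 1.58). Fkbp1a, a partner of the release channel, rose by 0.45 ± 0.10 and Sri, sorcin, by 0.29 ± 0.08, while the channel subunit gene Cacnb2 fell by 0.52. The count of rises was 1 without sham sample 2. Cyclic AMP genes were divided: the phosphodiesterases Pde4d (-0.66 ± 0.12) and Pde4a (-0.52 ± 0.13) and the cyclase Adcy9 (-0.42) fell, and Adcy7 (0.92 ± 0.17) and Pde8a (0.39) rose, among 28 tested. Pde4d read 8.06, 8.40, 8.29 and 7.97 in sham and from 7.28 to 7.73 (median 7.55) after TAC. Of 7 adrenergic and muscarinic receptor genes and kinases 1 fell, Adra1b, an alpha-1 receptor, at -0.73 ± 0.19, a call lost without sham sample 1 or 3 or TAC sample 4 (-0.80 to -0.64). Regulators of G-protein signalling gave 1 fall, Rgs2, a brake on Gq-coupled receptors, at -0.73 ± 0.20, and 1 rise, Rgs10 at 0.45 ± 0.12, among 15. The call of Rgs2 held in 5 and that of Rgs10 in 7 of the 10 fits without 1 array (-0.81 to -0.58 and 0.38 to 0.51).

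TGF-beta, BMP and activin genes rose in 8 of 42 and fell in 1, at a median of 0.03, or -0.05 in the values as deposited. Rises were of the ligand gene Tgfb2 (0.94), the receptor gene Tgfbr2 (0.45), the mediator Smad1 (0.63), the binding proteins Ltbp2 and Ltbp3, the follistatin relatives Fstl1 (1.32) and Fstl3 (1.38), and Ccn2, the connective tissue growth factor (1.36). The sham mean of Fstl3 was below 4.35, so the size of its rise is imprecise. Its call held in 4 of the 10 fits without 1 array (1.10 to 1.55) and was lost without a filter. Bmp6 fell by 0.53. Ccn2 read 8.46, 7.92, 8.17 and 8.56 in sham and from 9.38 to 10.17 (median 9.59) after TAC, without overlap. Without sham sample 1 the count of rises was 5 and without sham sample 4 it was 4. Of 22 integrin-linked, Hippo and YAP/TEAD target genes Ccn2, Ankrd1 and Mob1a (0.42) rose.

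Natriuretic peptide and endothelin genes rose in 3 of 16. Nppa, the atrial peptide, read 10.24, 9.70, 10.43 and 10.38 in sham and from 11.55 to 12.22 (median 11.83) after TAC. Nppb, the B-type peptide, read 10.69, 10.82, 10 and 10.50 in sham and from 11.52 to 12.04 (median 11.85) after TAC. Both stood apart between the groups, at 1.66 ± 0.37 and 1.32 ± 0.22, and Nppb kept its call under each alternative whereas Nppa lost it in the values as deposited and with the actin covariate. The endothelin receptor gene Ednrb rose by 0.47 ± 0.13, which held in 5 of 10 fits without 1 array (0.36 to 0.53).

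Among fibroblast growth factors Fgf1 and Fgf13 of 14 fell, by 0.47 ± 0.10 and 0.35 ± 0.10, with a family median of -0.31. The call of Fgf13 held in 4 of the 10 fits without 1 array (-0.37 to -0.30). In the insulin-like growth factor family Igfbp7 (0.79 ± 0.10) and Igf1 (0.75 ± 0.20) rose and Irs1 (-0.48 ± 0.13), the adaptor of the insulin receptor, fell among 16. The calls of Igf1 and Irs1 held in 5 and 7 of the 10 fits (0.65 to 0.88 and -0.54 to -0.40). Igfbp7 read 10.28, 10.34, 10.20 and 10.25 in sham and from 10.82 to 11.35 (median 11.04) after TAC. Wnt genes rose in 2 of 40 (5.0%), near the 5.19% of all tested genes. These were the secreted Wnt antagonist Frzb (1.17 ± 0.35) and the receptor Fzd2 (0.55 ± 0.14). The call of Frzb was lost whichever wild-type array was left out (1.01 to 1.29). In the vascular growth factor list Angpt1, which keeps vessels quiescent, fell by 0.90 ± 0.23, a call lost without sham sample 1 or 4 (-0.98 to -0.84), and Nrp2, a coreceptor of lymphatic VEGF, rose by 0.72 ± 0.17, among 23. Angpt1 read 8.60, 8.32, 8.22 and 8.53 in sham and from 7.18 to 7.89 (median 7.55) after TAC. Of 16 ephrin genes 1 fell, Epha4 (-0.80 ± 0.23), which held in 3 of 10 fits (-0.85 to -0.74), and of 18 Notch pathway genes 0 were called. Calcineurin and MAP kinase feedback genes rose in 3 of 40 (7.5%, against 5.19% of all tested genes), Dusp26 (0.55), Spred1 (0.40) and Dusp8 (0.34). That count was 0 without sham sample 1 or 3 and 1 without sham sample 4 or TAC sample 3 or 4. Rcan1, a common readout of calcineurin, stood at 0.54 without a call.

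Fc receptors and immune lectins rose in 8 of 49 and fell in 1. The calls were 4 members of the tetraspan Ms4a cluster of macrophages, Ms4a6d (1.54), Ms4a7 (1.31), Ms4a6b (1.17) and Ms4a6c (0.67), and the signalling chains Tyrobp (0.83) and Fcer1g (0.71) with the receptor genes Fcgr3 (0.89) and Clec4n (0.66). Ms4a7 read 5.01, 5.39, 5.37 and 4.52 in sham and from 5.57 to 7.22 (median 6.31) after TAC. Siglech, a marker of plasmacytoid dendritic cells, fell by 0.36. Complement genes rose in 6 of 25 (median 0.23), the 3 chains of C1q, C1qb (1.00), C1qa (0.77) and C1qc (0.76), with C1qtnf6 (1.17), Colec12 (0.62) and Masp1 (0.59). MHC class II genes had 0 calls among 8, at a median of 0.01, or -0.05 in the values as deposited, and MHC class I and antigen processing genes 0 among 11, at a median of 0.10. The MHC class I gene H2-K1 read 10.19, 9.89, 9.14 and 9.15 in sham and from 9.58 to 10.12 (median 9.92) after TAC. Sham samples 1 and 2 read higher than samples 3 and 4 in H2-K1, and likewise in B2m and the immunoproteasome gene Psmb8.

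Toll-like and scavenger receptors rose in 5 of 22, namely Mrc1, Mrc2 (0.70), Stab1 (0.55), Cd14 (0.51) and Tlr13 (0.47). That count was 1 without sham sample 4, 2 without sham sample 1, and 3 without TAC sample 4 or 5. Interferon-stimulated genes rose in 3 of 44, Ifit2 (1.20 ± 0.25), Ifi30 (0.64 ± 0.15) and Ifitm2 (0.48 ± 0.10), and Iigp1 fell by 0.59. The called share was 9.1%, near the 7.35% of all tested genes. In the values as deposited and after median centring the calls were 1 rise and 0 falls. Ifit2 read 5.23, 5.85, 5.05 and 5.11 in sham and from 6.18 to 6.98 (median 6.46) after TAC. Chemokines and their receptors rose in 2 of 30 (6.7%), near the 5.19% of all tested genes. Ccl8, a monocyte chemokine, rose by 0.85 ± 0.16 and the decoy receptor Ackr3 by 0.41 ± 0.10, a call lost without sham sample 1 (0.35 to 0.46). Interleukin and tumour necrosis factor genes rose in 8 of 84 and fell in 3. Tnfrsf12a, the receptor of the cytokine TWEAK, read 8.34, 8.19, 8.39 and 8.42 in sham and from 8.96 to 10.17 (median 9.67) after TAC. Il15, a cytokine of muscle and stroma, read 8.18, 8.11, 8.31 and 8.09 in sham and from 6.95 to 7.65 (median 7.44) after TAC. These changes of 1.30 ± 0.19 and -0.80 ± 0.18 were without overlap. The other rises were Socs3 (1.12), Il33 (0.90), Il3ra (0.63), Csf1r (0.54), Il1rl2 (0.51), Osmr (0.49) and Socs2 (0.41), and the other falls Stat5a (-0.42) and Stat5b (-0.30). The count of rises was 4 without sham sample 1 or TAC sample 4 and 5 without sham sample 4.

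Cardiac transcription factors had 0 calls among 24 (median -0.12), with Myocd, the coactivator of serum response factor, at -0.54 ± 0.19 and Irx5 at -0.44 ± 0.15. Gata4, the zinc-finger factor that the series is about, read 8.29, 7.93, 8.10 and 8.10 in sham and from 7.43 to 8.15 (median 7.80) after TAC, at -0.31 ± 0.12 (adjusted p = 0.125). The groups overlapped. AP-1, Egr and Atf genes rose in 5 of 20 (median 0.34), Ier5 (0.87), Atf3 (0.81), Ier3 (0.55), Jun (0.45) and Atf4 (0.29), while Fos stood at 0.49 without a call, and 0 were called with the actin covariate. Without sham sample 1, 2 or 4 or TAC sample 4 or 6 the count was 3. Of 34 nuclear receptors 2 fell, Rxrg, the retinoid X receptor of muscle (-0.57 ± 0.12), and Esrra. Rxrg read 8.15, 8.37, 8.21 and 8.35 in sham and from 7.41 to 7.97 (median 7.74) after TAC, with no overlap. Histone deacetylases and sirtuins gave 1 rise, Hdac1 (0.37 ± 0.09), and 1 fall, Hdac9 (-0.40 ± 0.12), a repressor of hypertrophic genes, among 17, and the calls held in 8 and 2 of 10 fits without 1 array (0.33 to 0.41 and -0.44 to -0.31).

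Genes of cell death moved in a few members. Caspases and inhibitors of apoptosis rose in 4 of 20, of which Birc5 (2.33) is also a mitosis gene, and the others were the necroptosis kinase Ripk3 (0.97), the initiator caspase gene Casp8 (0.67) and Casp12 (0.59). Casp8 read 6.25, 6.61, 6.37 and 6.68 in sham and from 7.0 to 7.43 (median 7.11) after TAC. Ripk3 read 4.46, 4.43, 4.42 and 3.63 in sham and from 4.82 to 5.49 (median 5.18) after TAC. Neither overlapped, and the sham means of Birc5 and Ripk3 lay below 4.35. In the Bcl2 family 1 of 18 rose, Bok (1.02 ± 0.29), whose groups overlapped and whose call held in 4 of 10 fits without 1 array (0.65 to 1.27).

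Among the 12 largest rises with both group means at or above 4.35 and no overlap, most have been described with their families. The rest were Pclaf, a PCNA-binding replication factor (2.06 ± 0.32), Mest, an imprinted fetal gene (2.05 ± 0.24), and D17H6S56E-5 (2.0 ± 0.30). Mest read 5.76, 5.62, 6.08 and 6.15 in sham and from 7.59 to 8.43 (median 7.91) after TAC. On the other side, Retnla, a resistin-like protein of alternatively activated macrophages, read 6.66, 6.65, 5.86 and 6.53 in sham and from 3.83 to 5.53 (median 4.79) after TAC, against the direction of the macrophage markers above. Its call was lost without sham sample 1, 2 or 4 or TAC sample 4 (-1.79 to -1.41). Ano10 of the anoctamin family read 8.88, 9.36, 8.39 and 9.42 in sham and from 7.49 to 7.85 (median 7.69) after TAC, and fell by 1.35, which held under each alternative and without each array. Lgals4, a galectin, fell by 1.26, Fah of tyrosine breakdown by 0.83, Wnk2, a kinase of ion transport, by 0.81, and Dixdc1 by 0.80, each without overlap. Gpr22, an orphan receptor of heart muscle, read 7.63, 7.50, 7.96 and 7.52 in sham and from 6.32 to 7.28 (median 6.80) after TAC. Ces1d, a carboxylesterase, stood at -1.03 ± 0.29, a call that held in 3 of 10 fits without 1 array (-1.12 to -0.85).

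Finally, the wild-type response was compared with that of G4D hearts by the difference of the TAC effects. Limma called 2 of 13279 genes (0.0151%), and 1110 had an unadjusted p under 0.05. None of the named calls above differed between the genotypes by this test, which does not show that the responses were alike. In G4D hearts TAC over sham called 2988 genes (22.5%). Synpo2, an actin-binding Z-disc gene related to Synpo2l, read 9.54, 9.75, 9.58 and 9.58 in wild-type sham and from 9.26 to 9.41 (median 9.36) after TAC, a change of -0.27 ± 0.10 (adjusted p = 0.14). In G4D it rose by 0.96 ± 0.10, and the difference was 1.23 ± 0.14 (adjusted p = 0.000355). Uck2, a uridine-cytidine kinase, stood at 0.61 ± 0.22 in wild type (adjusted p = 0.111) and rose by 2.46 ± 0.21 in G4D, a difference of 1.85 ± 0.31 (adjusted p = 0.0358). In wild-type hearts Uck2 read 6.90, 6.91, 7.20 and 7.0 in sham and from 6.97 to 8.36 (median 7.61) after TAC, so the groups overlapped.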

How the data were processed

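RNA of 21 samples was measured, 1 array each. The authors deposited log2 expression values per probe set, computed with PLIER per the submitters' processing notes; its version, background correction and normalization are not given in the sources used here. The log2 scale was read from the values, which run from -13.5 to 15.1, and from the spike-in controls, which rise from 6.76 for bioB to 11.97 for cre. Arrays were quantile-normalized here, because their medians as deposited ran from 4.31 to 5.33.

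Of 45101 probe sets, 64 controls, 932 with several symbols and 9160 without a symbol in the platform annotation were left out. The brightest probe set stood for each of 18193 symbols, and genes with a mean over all arrays of at least 4.35 (the 40th percentile) were tested. One limma fit (version 3.58.1, R 4.3.3) held all 21 arrays in 4 groups with 17 residual degrees of freedom, so the groups share 1 estimate of the spread. Tests were two-sided with Benjamini-Hochberg adjustment at 0.05 over 13279 genes. In simulated data with independent noise in each gene and array, the fit called 61.2%, 86.6% and 100% of genes changed by 0.5, 1 and 2 on the log2 scale. Of the calls 3.51% were false. The simulation held no effect shared by the genes of an array, so these shares may not carry over to the real arrays.

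Members and lists were chosen with earlier results of these data known. Per family, up to 3 called members with the largest changes were named, those without overlap first, or up to 2 members where none was called; over all genes, the 12 largest rises and falls without overlap and with both means at 4.35 or more, and Gata4. Full listings of a family's called members are no selection, and the other genes given with a value alone were chosen after their values were seen. Promoters are RefSeq windows, found for 10656 tested genes. Alternatives were the filter, the scaling, the arrays in the fit, the probe set rule, a variance trend, array weights, a replicate block, the actin covariate and leaving out each array. The labels do not say whether the replicate numbers pair the samples. The result of 1 family is not reported here.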

Additional observations from a re-analysis of the deposited data

Results flagged for a closer look

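Single samples stood apart from the rest of their group in 32 of 580 checks (5.52%), where chance flags about 1 in 20. TAC sample 4 accounts for most of those among the TAC samples. It was the highest of the 6 for Adcy7 at 7.82 (others 7.21 to 7.39), Casp8 at 7.43 (7.0 to 7.16), Cd68 at 7.20 (6.43 to 6.64), Itga6 at 8.96 (8.55 to 8.66), Myh7 at 11.88 (10.75 to 11.17) and Postn at 11.11 (10.05 to 10.41). It was the lowest for Ces1d at 7.03 (7.90 to 8.37), Cox7a1 at 11.41 (11.63 to 11.75), Esrra at 7.57 (7.86 to 8.04), Gstm7 at 6.80 (7.09 to 7.24), Pcx at 4.95 (5.55 to 5.79) and Pdk2 at 9.17 (9.56 to 9.76). The median of the complex I subunits relative to sham was lowest there too, at -0.22 (-0.12 to -0.10). Elsewhere among the TAC samples, Eif4ebp1 was low in sample 6 at 8.76 (9.29 to 9.40), as was the median of the cytosolic ribosomal proteins at 0.02 (0.08 to 0.11), and Hdac9 was low in sample 5 at 6.26 (6.70 to 6.89).

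Among the sham samples, sample 2 was the lowest for Bgn at 9.39 (9.68 to 9.72), Sparc at 10.53 (10.85 to 10.90), Kif11 at 4.32 (4.94 to 4.98) and the collagen median at -0.11 (0.02 to 0.05), and the highest for Cyp26b1 at 6.11 (5.11 to 5.27) and the cyclin median at 0.06 (-0.04 to -0.03). Sample 1 was the lowest for Cdkn1c at 7.45 (7.74 to 7.76) and Kcnv2 at 5.87 (6.33 to 6.39). Sample 3 was the lowest for Ltbp2 at 3.30 (3.48 to 3.51), Retnla at 5.86 (6.53 to 6.66), Spred1 at 6.84 (7.04 to 7.05) and the Notch pathway median at -0.01 (0.02 to 0.03), and the highest for Wnk2 at 8.20 (7.92 to 7.95) and the median of the natriuretic peptide, endothelin and renin-angiotensin genes at 0.15 (-0.02 to 0.00). Sample 4 was the lowest for Lama4 at 7.72 (7.92 to 7.95) and Ripk3 at 3.63 (4.42 to 4.46).

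The TAC effects of the genotypes differed by the test of the difference itself for Synpo2, by 1.23, and for Uck2, by 1.85, both higher in G4D hearts.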

How the results depend on the processing

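The 976 calls of wild-type TAC over sham became 95 in the values as deposited, 388 after median centring, 406 with the actin covariate and 489 with a replicate block, and the cause was not tested. Without 1 wild-type array they ran from 559 (without sham sample 1) to 923, with 602 without TAC sample 4. The other settings gave 806 to 1364 calls. The 2 differences between the genotypes became 1 without a filter, with the replicate block or with the actin covariate, 0 with the mean of probe sets, 6 in the values as deposited, 10 after median centring, 14 with the filter at the 60th percentile, 16 with a variance trend, 24 with array weights and 1 to 3 without 1 array. With 0 calls by limma for the mean of probe sets, 1067 genes had an unadjusted p under 0.05. Rac2, a gene of white blood cells, rose by 0.49 and kept its call when the wild-type arrays were fitted alone on the same values. It turned to -0.29 when they were also normalized alone. That setting picks the brightest probe set anew, so another Rac2 probe set may have been read. The call was also lost with the mean of probe sets. Of 192 named calls 113 held without each array and 37 under every setting and array. Same-numbered sham and TAC samples deviated with correlations of -0.31 to -0.08 over 4 pairs. These show no likeness within pairs, but 4 pairs are too few to settle whether the numbers mark a shared block. The replicate block is read as a setting only. The number of arrays limits all of these, and genes with a group mean under 4.35 have imprecise sizes.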

Other observations

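Further families were measured that belong to none of the comparisons above. Of 30 kinesins 3 rose, and these were the mitotic motors Kif22 (2.94), Kif4 (0.81, from a sham mean below 4.35) and Kif11 (0.63), while the family median was -0.03; without sham sample 1 the count was 1. Heat shock proteins and co-chaperones rose in 2 of 78 (median 0.00), Hspa1l (1.38, from a sham mean below 4.35) and the small muscle chaperone gene Hspb6 (0.27). The 1 rise among 28 ubiquitin-conjugating enzymes was Ube2c (2.48), which serves the mitotic ubiquitin ligase. Of 33 cytochrome P450 genes Cyp20a1 rose (0.52) and Cyp26b1 fell (-0.65). Kruppel-like factors (16 tested), SOX and RUNX factors (18) and clock genes (17) had 0 calls each. The zinc-finger genes named Zfp, with 256 tested members, gave 1 rise, Zfp948 (0.54), and 1 fall, Zfp503 (-0.39). Of their 256 values 166 were negative (median -0.05). The calls of Kif11 and Hspb6 held in 1 and 2 of the 10 fits without 1 array (0.47 to 0.74 and 0.23 to 0.32). Those of Zfp948 and Zfp503 held in 2 and 3 (0.49 to 0.58 and -0.45 to -0.34).

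Letters of 3 further motifs were counted on both strands of the promoter windows. The TEAD motif was searched as GGAATG, the AP-1 motif as TGANTCA, and the TATA motif as TATAAA. The TEAD motif occurred in 12.7% of the genes that rose, 13.2% of those that fell and 12.5% of all tested genes. The AP-1 motif occurred in 5.89%, 5.13% and 5.33% of the same sets, and the TATA motif in 9.70%, 7.69% and 8.27%. No test was run on these shares.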
